A study of Macaca mulatta with 24 samples.

Results

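The A-type Kv4 potassium channel complex is described here through 8 genes, its pore subunits and their partners, in the nucleus accumbens core of rhesus macaques. The genes were taken by symbol (KCND2, KCND3, KCNIP1, KCNIP2, KCNIP3, KCNIP4, DPP6 and DPP10) from the 17208 genes listed, and all 8 were found. Kv4 channels open on small depolarisations and inactivate within milliseconds, and the transient A-type current they carry delays the first spike of a neuron and limits how far spikes travel back into its dendrites. The pore-forming subunits assemble with potassium channel interacting proteins (KChIPs), which are calcium sensors on the inner side of the membrane, and with dipeptidyl-peptidase-like proteins, which span the membrane and have no peptidase activity. Both kinds of partner bring more channel to the surface and change how fast it gates, and in striatal projection neurons the A-type current helps to set how late a cell fires after it is driven.

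The series measured RNA by sequencing of polyA-selected libraries from the accumbens core of 24 unrelated adult male macaques, to find genes that differ with long-term voluntary ethanol drinking. All animals were trained on drinking panels and had a dissection of about 1 cubic millimetre taken after 12 months of open access without imposed abstinence. The 16 drinkers were induced with 4% ethanol, first at 0.5 g/kg/day, later at 1.0 and last at 1.5, and then had ethanol and water side by side for 22 hours a day. The 8 controls went through the same procedure with water on both spouts and received a 10% maltose dextrin solution matched for calories. The 8 low drinkers (LD*, light and binge drinkers together) drank 0.47 to 2.07 g/kg a day with a median of 1.82. The 8 high drinkers (HD*) were 4 heavy drinkers (HD), at 2.74 to 3.09 g/kg, and 4 very heavy drinkers (VHD), at 3.09 to 3.78 g/kg. The animals came from 4 cohorts. Cohort 4 gave 2 LD* animals, cohort 5 gave 3 controls and 4 HD*, cohort 7a gave 2 controls, 3 LD* and 4 HD*, and cohort 7b gave 3 controls and 3 LD*. Cohorts 5 and 7a each gave 2 HD and 2 VHD animals, and these are the cohorts in which HD* animals and controls can be compared. Values are given here as TPM, transcript abundances scaled by gene length. The file itself is named as normalized counts from DESeq2, and the unit was inferred, since the values of each animal add up to about 1000000. The gene lengths used are not stated, so levels of different genes compare only as far as those lengths hold, and the values carry no read depth.

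Markers of striatal projection neurons were detected in every animal, with none of the 12 at 0. PENK, the enkephalin precursor, had a mean of 2638 TPM, and was lowest in control 6, at 265 TPM, and control 8, at 643 TPM. Several libraries stood apart. In 4 animals (control 8, LD* 5, HD* 6 and HD* 8) the median over all listed genes was 7.39 to 9.93 TPM, against 10.7 to 13.6 TPM in the other 20, and 84 ribosomal protein genes made up 15.4% to 18.1% of all TPM, against 7.60% to 12.8%. These 4 animals had the 4 lowest values of KCND2, DPP6 and DPP10 among the 24, and none of the 4 lowest of KCNIP3. Control 6 had the lowest sum of projection neuron markers, 881 TPM, with the highest sums of oligodendrocyte markers, 10128 TPM, and astrocyte markers, 8825 TPM. Markers of glutamatergic projection neurons, which are cells of cortex and nearby regions, added up to over 100 TPM in 7 animals, and the highest were LD* 4 at 877 TPM and control 2 at 415 TPM.

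Both pore subunits were present at moderate levels and varied widely between animals. KCND2, which encodes Kv4.2, ranged from 8.80 through a median of 18.6 to 40.2 TPM in controls, from 11.2 through 20.7 to 29.1 TPM in LD* and from 6.05 through 21.6 to 34.0 TPM in HD* animals. The highest were control 1 and control 3 at 34.9 TPM, the lowest were HD* 8, HD* 6 and control 8, and the 3 groups overlapped. KCND3, which encodes Kv4.3, lay at 13.8, 24.6 and 35.0 TPM (lowest, median and highest) in controls, at 15.9, 27.7 and 41.0 TPM in LD* and at 9.86, 23.8 and 31.8 TPM in HD* animals. LD* 7 was highest and HD* 8 lowest, and the groups overlapped here as well. KCND2 made up a median of 43.2% of the summed pore subunit TPM of an animal, with a range of 34.4% to 57.7%, so KCND3 was the larger part in most animals.

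The 4 KChIP genes, whose proteins bind the inner end of the pore subunit, differed more in level than the pore subunits did. KCNIP2, the KChIP that is also the main partner of Kv4 in heart muscle, had 51.8, 185 and 271 TPM in controls, 123, 225 and 245 TPM in LD* and 133, 196 and 257 TPM in HD* animals. Control 6 held the lowest value and control 3 the highest, and the drinkers lay inside that range. KCNIP1, known from interneurons among other cells, had 53.6, 79.1 and 148 TPM in controls, 56.3, 91.7 and 130.1 TPM in LD* and 47.6, 88.1 and 121 TPM in HD* animals. KCNIP3, whose protein also acts in the nucleus as the repressor DREAM, had 43.3, 50.8 and 84.1 TPM in controls, 30.3, 50.6 and 80.4 TPM in LD* and 37.4, 47.1 and 53.4 TPM in HD* animals. Control 2 and LD* 4 were its highest animals and LD* 8 its lowest, and they are not the animals that were extreme for the pore subunits. KCNIP4, which has a splice form that slows the inactivation of the channel, had 23.4, 40.5 and 51.3 TPM in controls, 28.8, 46.5 and 60.2 TPM in LD* and 15.8, 38.1 and 55.5 TPM in HD* animals. LD* 2 and HD* 4 were highest and HD* 8 lowest, and the groups overlapped for all 4 genes. Of the summed KChIP TPM of an animal, the median share was 52.5% for KCNIP2, 24.3% for KCNIP1, 13.2% for KCNIP3 and 10.6% for KCNIP4. The share of KCNIP2 had the widest range, from 23.6% in control 6 to 60.6%.

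DPP6, the membrane-spanning partner that speeds the gating of Kv4, had the highest mean of the 8 genes and a wide spread within each group. It had 79.8, 196 and 315 TPM in controls, 91.6, 252 and 340.1 TPM in LD* and 92.9, 218 and 328 TPM in HD* animals. LD* 8 was highest and control 8 lowest, and the groups overlapped. DPP10, its relative with a like role, had 10.4, 25.7 and 29.6 TPM in controls, 8.78, 22.3 and 37.0 TPM in LD* and 6.65, 19.0 and 29.2 TPM in HD* animals. LD* 4 was highest and HD* 8 lowest. DPP6 made up 78.2% to 94.9% of the pair's TPM.

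In order of mean level over the 24 animals, the genes were DPP6 (215 ± 90.3 TPM, SD), KCNIP2 (192 ± 55.2), KCNIP1 (88.9 ± 26.3), KCNIP3 (51.7 ± 12.9), KCNIP4 (40.4 ± 10.5), KCND3 (24.8 ± 7.93), DPP10 (21.5 ± 7.69) and KCND2 (20.5 ± 8.42). Neighbours at both ends of this order did not differ beyond their spread, since DPP6 lay above KCNIP2 in 14 of 24 animals and DPP10 above KCND2 in 14 of 24. KCNIP4 lay above KCND3 in all 24 animals, KCNIP2 above KCNIP1 in 23, KCNIP1 above KCNIP3 in 20, KCND3 above DPP10 in 19 and KCNIP3 above KCNIP4 in 18. The highest animal had 6.65 times the TPM of the lowest for KCND2 and 2.78 times for KCNIP3, the widest and the narrowest of the 8 ranges. Summed by role, an animal had a median of 8.45 TPM of KChIP genes and 5.20 TPM of dipeptidyl-peptidase-like genes for each TPM of pore subunit. The ratio of KChIP to pore subunit TPM was highest in HD* 8, at 19.3. All 8 genes had a mean over 1 TPM and entered the tests.

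**Figure D1:**
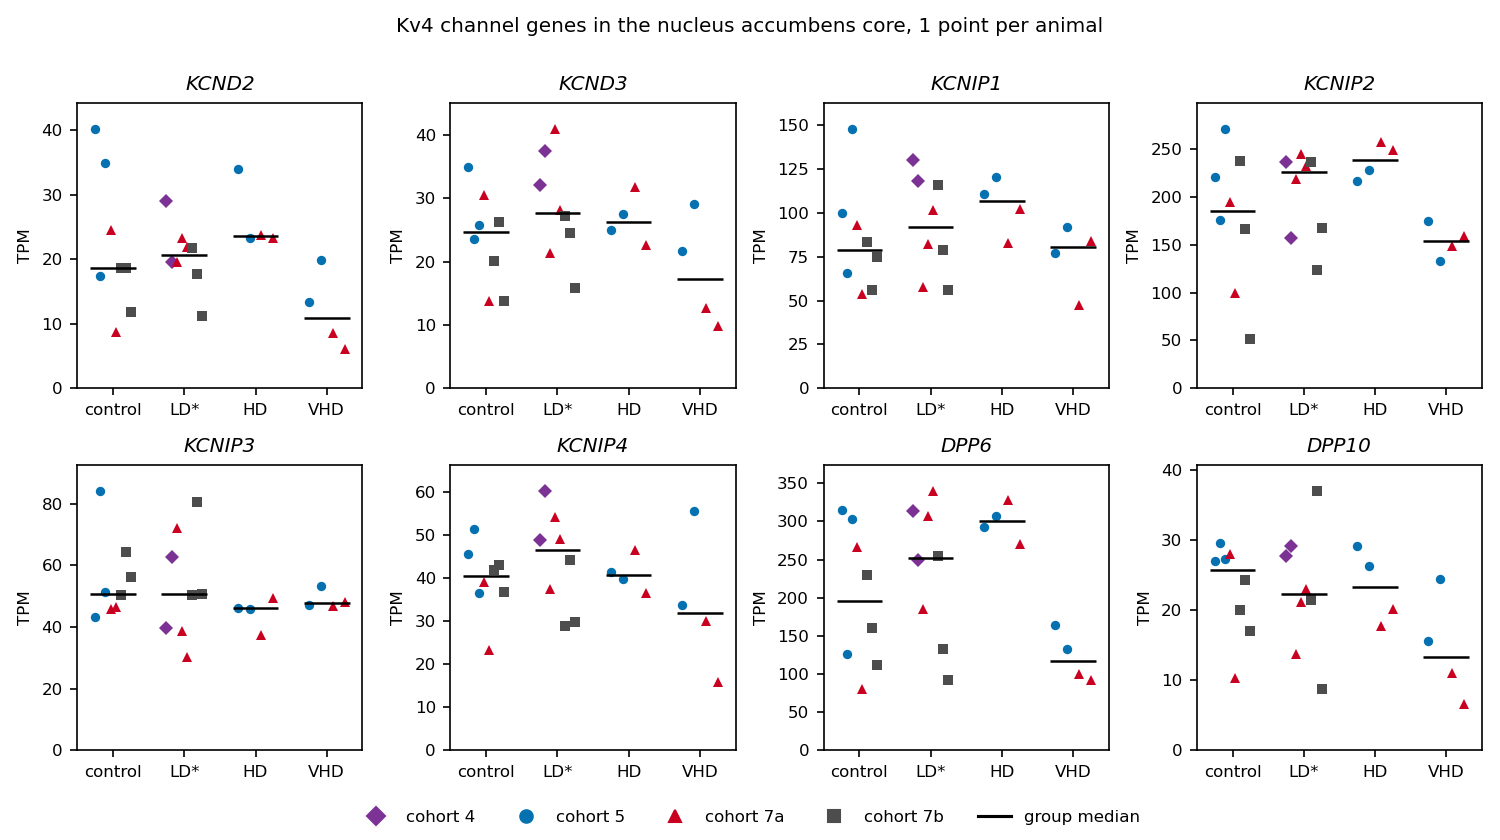
TPM of each of the 8 genes on the vertical axis by drinking category, with 1 point per animal, the marker showing the cohort and the bar the median of the category. In VHD animals KCND2 (6.05 to 19.9 TPM), KCNIP2 (133 to 175 TPM) and DPP6 (92.9 to 165 TPM) lie below all 4 HD animals, and controls overlap both categories.

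High drinkers against controls is the main question of the series, and no gene of the complex differed between them past the test. HD* minus control was −0.21 for KCND2 and −0.085 for KCND3 on the log2(TPM + 1) scale. Among the KChIPs it was 0.11 for KCNIP1, 0.26 for KCNIP2, −0.21 for KCNIP3 and −0.13 for KCNIP4, and it was 0.075 for DPP6 and −0.32 for DPP10. By limma, 0 of the 8 genes and 0 of 13637 genes (0%) had an adjusted p under 0.05. At an unadjusted p under 0.05 these counts were 0 of 8 and 775 of 13637 (5.68%). The adjusted p of the 8 genes ran from 0.706 for KCNIP3 to 0.932 for DPP6, and a two-sided exact permutation test of each gene gave p from 0.103 for KCNIP3 to 0.833 for DPP6. The 95% confidence intervals still hold sizeable differences, as from −0.83 to 0.40 for KCND2, from −0.26 to 0.78 for KCNIP2 and from −0.61 to 0.76 for DPP6. The median over the 8 genes was −0.11, beside −0.12 over all genes tested. Markers of projection neurons, oligodendrocytes and astrocytes each had differences of one sign. In HD* animals 12 of 12 projection neuron markers were higher (median 0.44, and 0.57 under TMM), and 10 of 10 oligodendrocyte (−0.37) and 8 of 8 astrocyte markers (−0.20) lower. Of these 0 passed by limma, and 0, 0 and 2 had an unadjusted p under 0.05. Under TMM 1 of the 10 and 3 of the 8 turned positive. Markers of the other cell types went both ways, with 3 of 7 microglia, 2 of 9 interneuron, 1 of 6 glutamatergic and 1 of 6 vascular markers positive.

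A rescaling of the animals by trimmed means of M-values (TMM) moved the all-gene median of HD* minus control from −0.12 to −0.0067, so the differences are also given relative to that median. They were −0.094 for KCND2, 0.036 for KCND3 (which turns from negative to 0.034 under TMM), 0.23 for KCNIP1, 0.38 for KCNIP2, −0.088 for KCNIP3, −0.0063 for KCNIP4, 0.20 for DPP6 and −0.20 for DPP10. Within cohorts 5 and 7a in turn, HD* minus control was −0.42 and −0.16 for KCND2, −0.11 and −0.22 for KCND3, −0.0047 and 0.11 for KCNIP1, −0.25 and 0.50 for KCNIP2, −0.25 and −0.027 for KCNIP3, −0.071 and −0.010 for KCNIP4, −0.12 and 0.21 for DPP6 and −0.25 and −0.39 for DPP10. KCNIP1, KCNIP2 and DPP6 thus had opposite signs in the 2 cohorts. The difference between the cohorts in the HD* effect was 0.75 for KCNIP2 (95% confidence interval −0.18 to 1.68), 0.34 for DPP6 and 0.26 for KCND2, and by limma 0 of 8 and 0 of 13637 genes (0%) passed. At an unadjusted p under 0.05 these counts were 0 and 294. In the same fit 12 of 12 projection neuron markers were positive (median 0.78), and 10 of 10 oligodendrocyte (−0.61), 7 of 7 microglia (−0.72) and 7 of 8 astrocyte markers (−0.63) were negative, with 0 passing by limma and 0, 0, 1 and 2 at an unadjusted p under 0.05. Without the 4 animals of low median, KCND2 was 0.0050 and KCND3 0.11, so both turned positive.

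Low drinkers against controls uses the same control animals, and again no gene of the complex passed. LD* minus control was 0.014 for KCND2, 0.27 for KCND3, 0.14 for KCNIP1, 0.30 for KCNIP2, −0.090 for KCNIP3, 0.13 for KCNIP4, 0.26 for DPP6 and −0.053 for DPP10. The direct comparison of the drinking groups shares its animals with both, and HD* minus LD* was −0.23 for KCND2, −0.36 for KCND3, −0.12 for KCNIP3, −0.26 for KCNIP4, −0.19 for DPP6 and −0.27 for DPP10. For KCNIP1 it was −0.029, turning to 0.060 under TMM, and for KCNIP2 −0.046, turning to 0.043. The largest of these in size, that of KCND3, had a 95% confidence interval of −0.84 to 0.12. By limma, 0 of 8 and 0 of 13637 genes (0%) had an adjusted p under 0.05 in either comparison. At an unadjusted p under 0.05, LD* minus control gave 0 of 8 and 387 of 13637 genes (2.84%), and HD* minus LD* gave 0 of 8 and 147 of 13637 (1.08%). The median over the 8 genes was 0.14 for LD* minus control, beside −0.025 over all genes, and −0.21 for HD* minus LD*, beside −0.084. In LD* minus control too, 12 of 12 projection neuron markers were higher (median 0.39) and 10 of 10 oligodendrocyte (−0.47) and 8 of 8 astrocyte markers (−0.20) lower, with 0 passing by limma and 0, 0 and 1 at an unadjusted p under 0.05. Two-sided exact permutation tests gave p from 0.240 (KCND3) to 0.964 (KCND2) for LD* minus control and from 0.177 (KCND3) to 0.895 (KCNIP1) for HD* minus LD*. Within cohort 7a, where both could be computed, LD* minus control was 0.51 for KCND2, 0.49 for KCND3, 0.73 for KCNIP2 and 0.87 for DPP6. There HD* minus LD* was −0.67, −0.71, −0.23 and −0.66 in the same order. For KCNIP1, KCNIP3, KCNIP4 and DPP10, LD* minus control was 0.15, −0.064, 0.60 and 0.13. Their HD* minus LD* was −0.036, 0.037, −0.61 and −0.53. In this cohort control 8, HD* 6 and HD* 8 are of low median, and no LD* animal is. KCND2 had 8.80 TPM in control 8 and 24.6 TPM in control 7. It had 19.5 to 23.3 TPM in LD*, 8.54 and 6.05 TPM in HD* 6 and HD* 8, and 23.8 and 23.2 TPM in HD* 5 and HD* 7. KCNIP2 had no overlap in LD* minus control, where 3 animals against 2 cannot give an exact p below 0.1. Its 2 controls were control 8, at 99.2 TPM, and control 7, at 195 TPM. The share of all genes without overlap in this split was not counted, so the lack of overlap cannot be read as a result. In cohort 7b, LD* minus control was 0.023 for KCND2, 0.17 for KCND3, 0.41 for KCNIP2 and −0.14 for DPP6.

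Among the 16 drinkers, levels were also set against daily intake, which asks whether the complex follows the amount drunk. The slope per g/kg was −0.24 for KCND2, −0.29 for KCND3, −0.13 for KCNIP1, −0.22 for KCNIP4, −0.25 for DPP6 and −0.28 for DPP10. For KCNIP2 it was −0.047 (0.025 under TMM) and for KCNIP3 −0.061 (0.011 under TMM), so 8 slopes were negative as deposited and 6 under TMM, beside 9882 and 6983 of 13637 genes. By limma, 0 of 8 and 0 of 13637 genes (0%) had an adjusted p under 0.05. At an unadjusted p under 0.05 the counts were 1 of 8 and 907 of 13637 (6.65%). The 1 gene was KCND3, with a 95% confidence interval of −0.54 to −0.033, an unadjusted p of 0.0290 and an adjusted p of 0.512. For markers of cell types, 9 of 10 oligodendrocyte slopes were positive (median 0.18) and 6 of 6 glutamatergic slopes negative (−0.34). Of the 12 projection neuron slopes 9 were negative as deposited (median −0.035, beside −0.068 over all genes). Under TMM 8 of the 12 were positive (median 0.038). By limma 0 markers of these lists passed. The other lists went both ways. The intakes of LD* and HD* animals do not overlap, and with group as a covariate the slope of KCND3 was −0.49 with an adjusted p of 0.498 by limma (range over all alternatives 0.134 to 0.965). With cohort as a covariate it was −0.65, with an adjusted p of 0.134 by limma. That covariate also moved the slopes of the other genes, to a median over the 8 of −0.58 from −0.23, beside −0.18 from −0.068 over all genes, with −0.73 for KCND2 and −0.77 for DPP6. It raised the counts at an unadjusted p under 0.05 to 5 of 8 (KCND2, KCND3, KCNIP4, DPP6 and DPP10) and 4014 of 13637 genes, of which 0 and 0 had an adjusted p under 0.05 by limma. Some other alternatives made the slopes smaller. The median over the 8 was −0.099 without the 4 animals of low median, −0.20 with the oligodendrocyte score as a covariate and −0.13 with array weights. At an unadjusted p under 0.05 by limma these gave 0, 0 and 1 of 8. Others made them larger, with a median of −0.52 with group as a covariate and −0.28 without the 7 animals with glutamatergic markers. By the same count these gave 1 and 2 of 8. The projection neuron score as a covariate gave a median of −0.19 and 2 of 8.

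**Figure D2:**
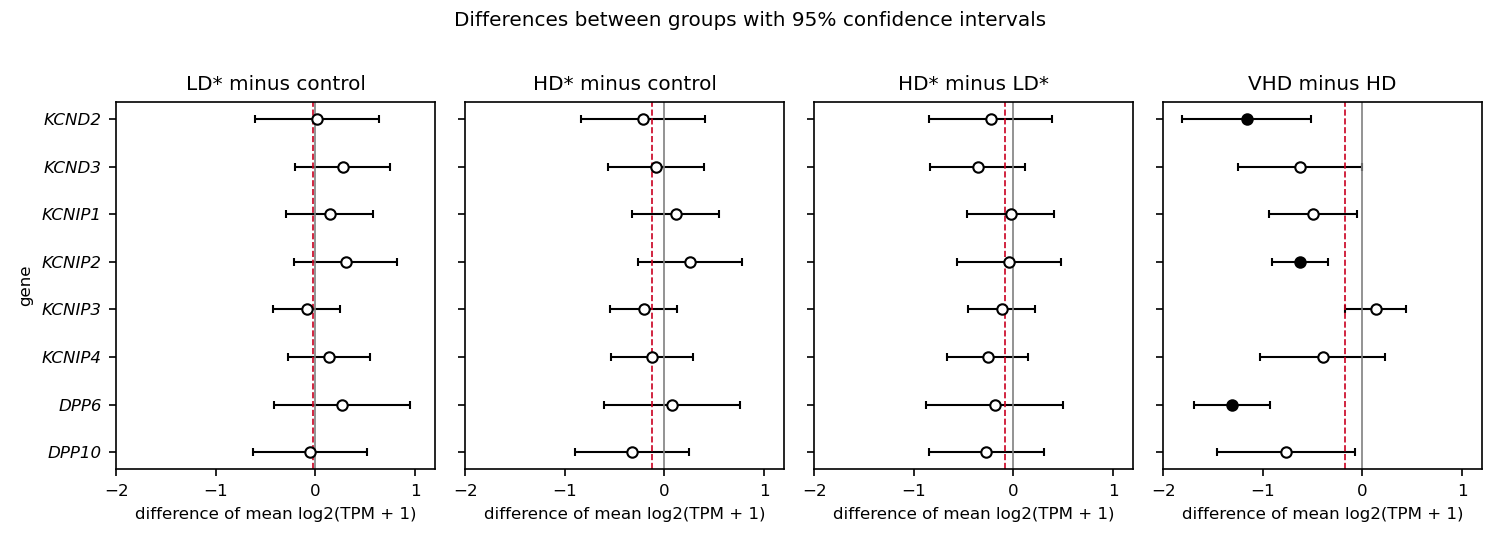
Log2 differences of the 8 genes (points) with 95% confidence intervals (bars) for LD* minus control, HD* minus control, HD* minus LD* and VHD minus HD. The dashed line is the median over all genes tested and filled points have an adjusted p under 0.05, which are KCND2, KCNIP2 and DPP6 in VHD minus HD; KCNIP2 does not pass after TMM rescaling.

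Within the high drinkers, very heavy and heavy drinkers differed in 3 genes of the complex, one of each role, at an adjusted p under 0.05 by limma, and in 0 of the 8 at the 0.001 that the study set for this comparison. Over all genes, 1997 of 13637 (14.6%) passed at 0.05 and 0 at 0.001. The pore subunit KCND2, the KChIP gene KCNIP2 and the membrane partner DPP6 were lower in all 4 VHD animals than in any of the 4 HD animals. Mean levels in HD and VHD were 26.1 ± 5.28 and 12.0 ± 6.09 TPM (SD, n = 4 each) for KCND2, 238 ± 18.7 and 154 ± 17.5 TPM for KCNIP2, and 299.6 ± 24.2 and 123 ± 33.0 TPM for DPP6. The other 5 genes did not pass, although 4 of them had negative differences. Both categories drew 2 animals each from cohorts 5 and 7a, and with cohort as a covariate DPP10 passed as well, at an adjusted p of 0.0305 by limma, so that 4 of 8 and 2757 of 13637 genes passed at 0.05. With array weights 7 of 8 passed at 0.05, all but KCNIP3, and 6 of them at 0.001, beside 7613 and 3185 of 13637 genes.

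KCND2 had 34.0, 23.3, 23.8 and 23.2 TPM in the HD animals HD* 2, HD* 3, HD* 5 and HD* 7, and 13.4, 19.9, 8.54 and 6.05 TPM in the VHD animals HD* 1, HD* 4, HD* 6 and HD* 8. HD* 2 stood above the rest of its category, the 2 lowest VHD animals are those of low median, and the categories did not overlap. VHD minus HD was −1.16 (SE 0.30, 95% confidence interval −1.82 to −0.51, adjusted p 0.0256 by limma), which put KCND2 at rank 1121 of 13637 genes by p. KCND3 had 24.9, 27.4, 31.8 and 22.6 TPM in the HD animals and 21.7, 29.0, 12.7 and 9.86 TPM in the VHD animals, in the same order of animals. HD* 4 lay among the HD animals, and the difference was −0.62 (SE 0.29, adjusted p 0.151 by limma). KCND2 was 42.8% to 57.7% of the pore subunit TPM in HD and 38.0% to 40.7% in VHD animals, so its share did not overlap either. Controls had 39.0% to 57.6%, and this share was not tested.

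Among the KChIPs, KCNIP2 had 217, 228, 257 and 249 TPM in the HD animals and 175, 133, 148 and 159 TPM in the VHD animals. All 4 VHD animals were lower, those of low median no more than the rest. VHD minus HD was −0.63 (SE 0.13, 95% confidence interval −0.91 to −0.35, adjusted p 0.0110 by limma), and under TMM it was −0.42 with an adjusted p of 0.136, so the call ends there (range over all alternatives 8.25e-05 to 0.687). KCNIP1 had 111, 121, 82.8 and 102 TPM in the HD animals and 77.0, 92.1, 47.6 and 84.1 TPM in the VHD animals, with HD* 5 inside the VHD range. KCNIP4 had 41.5, 39.7, 46.6 and 36.6 TPM in HD and 33.8, 55.5, 29.9 and 15.8 TPM in VHD animals, and HD* 4 was the highest of all 8. Their differences were −0.49 (adjusted p 0.116 by limma) and −0.40 (adjusted p 0.356). KCNIP3 was the 1 gene of the complex with a positive difference, 0.13 (SE 0.14, adjusted p 0.544 by limma), at 46.2, 45.9, 37.4 and 49.4 TPM in HD and 47.3, 53.4, 46.9 and 48.1 TPM in VHD animals. As a share of the KChIP TPM, KCNIP3 was 8.83% to 11.3% in HD and 14.2% to 17.2% in VHD animals, again without overlap and without a test. The TPM of KCNIP3 itself overlapped, as did the shares of KCNIP1, KCNIP2 and KCNIP4. The summed KChIP TPM was 415 to 437 in HD and 273 to 334 in VHD animals. In controls the KCNIP3 share was 10.1% to 25.7%.

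DPP6 showed the widest separation of the complex, with 293, 307, 328 and 270.3 TPM in the HD animals and 165, 133, 101 and 92.9 TPM in the VHD animals. The lowest HD animal, HD* 7, was still well above the highest VHD animal, HD* 1. VHD minus HD was −1.31 (SE 0.18, 95% confidence interval −1.70 to −0.93, adjusted p 0.00363 by limma), rank 23 of 13637 genes by p. DPP10 had 29.2, 26.3, 17.7 and 20.2 TPM in HD and 15.6, 24.4, 11.0 and 6.65 TPM in VHD animals. HD* 4 overlapped the HD animals, and the difference was −0.77 (SE 0.32, adjusted p 0.118 by limma).

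Over the whole table, 3 of 8 genes and 1997 of 13637 (14.6%) had an adjusted p under 0.05 by limma, and 3 of 8 and 1556 of 13637 (11.4%) passed as lower in VHD. At an adjusted p under 0.001, the threshold of the study, the counts were 0 of 8 and 0 of 13637 (0%), and at an unadjusted p under 0.05 they were 6 of 8 and 4457 of 13637. Categories without overlap and lower in VHD were found for 3 of 8 genes and for 2445 of 13637 (17.9%). The two-sided exact permutation p was 0.0286 for KCND2, KCNIP2 and DPP6, the smallest that 70 assignments can give, and 0.0857 to 0.371 for the other 5. The median over the 8 genes was −0.63, beside −0.17 over all genes.

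TMM rescaling moved the all-gene median of VHD minus HD from −0.17 to 0.0058 and the genes passing from 441 higher and 1556 lower to 1170 higher and 1411 lower. Relative to the all-gene median, the difference was −0.99 for KCND2, −0.45 for KCNIP2 and −1.14 for DPP6. Under TMM 2 of the 8 genes passed, KCND2 at −0.98 with an adjusted p of 0.0173 (range over all alternatives 4.27e-05 to 0.448) and DPP6 at −1.11 with 0.00849 (range 1.19e-05 to 0.448). Within cohorts 5 and 7a in turn, VHD minus HD was −0.75 and −1.58 for KCND2, −0.54 and −0.72 for KCNIP2 and −1.01 and −1.61 for DPP6. Since these genes had no overlap between the categories over both cohorts, they could have none within either, so this adds nothing. Within a cohort, 2 animals against 2 cannot give an exact p below 0.333.

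The calls of KCND2 and the number of genes passing depended on single animals and on the genes tested. With no filter on the mean, over 17208 genes, the adjusted p of KCND2 was 0.0715 by limma, and 2 of 8 and 1408 genes passed. Without HD* 2, HD* 3, HD* 5, HD* 6 or HD* 7 the adjusted p of KCND2 was 0.0745, 0.0615, 0.0651, 0.0957 and 0.0576 by limma, while DPP6 (0.000927 to 0.0203) and KCNIP2 (0.00724 to 0.0498) passed without any 1 of the 8 animals. The genes passing were 1094 without HD* 2, 681 without HD* 3, 4651 without HD* 4, 607 without HD* 5, 476 without HD* 6 and 723 without HD* 7. Leaving out the 4 animals of low median, which leaves 2 VHD animals, 606 genes passed, with KCND2 at −0.62 (adjusted p 0.119), KCNIP2 at −0.63 (0.0458) and DPP6 at −1.01 (0.0259). Leaving out the 7 animals with glutamatergic markers, which leaves 2 HD animals, 25 genes passed, with KCND2 at −1.30 (adjusted p 0.157), KCNIP2 at −0.62 (0.167) and DPP6 at −1.37 (0.0584). In a model of all 24 animals with 4 categories, 0 genes passed by limma and 4608 had an unadjusted p under 0.05, at adjusted p of 0.0567 for KCND2, 0.192 for KCNIP2 and 0.0559 for DPP6.

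Markers of cell types moved with the same division of animals. Of 12 striatal projection neuron markers, 11 passed as lower in VHD (among them DRD1, DRD2, ADORA2A, PENK, PDYN, PPP1R1B and RGS9), 11 did not overlap, and 5 passed under TMM. Their median was −1.08 (−0.87 under TMM), and PENK, the most abundant, was −1.04. The list added up to 12921, 11149.9, 12848 and 11341 TPM in HD* 2, HD* 3, HD* 5 and HD* 7, and to 7777, 4334, 6501 and 7439 TPM in HD* 1, HD* 4, HD* 6 and HD* 8. The 4 VHD sums lay below the 4 HD sums, and no marker was at 0. In bulk tissue, fewer cells of a type and less RNA per cell cannot be told apart. With the projection neuron score as a covariate, VHD minus HD was −1.65 for KCND2 (adjusted p 0.448 by limma), −0.23 for KCNIP2 (0.687) and −0.98 for DPP6 (0.448), and 0 of 13637 genes passed, with 1484 at an unadjusted p under 0.05. The scores were −0.75 to 0.019 in VHD and 0.56 to 0.83 in HD animals, without overlap, so this fit could not separate the score from the category.

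Of the 8 astrocyte markers, GFAP, the most abundant at a mean of 2098 TPM, rose by 1.39 in VHD (adjusted p 0.0135 by limma) and was the 1 to pass. The list summed to 3719.6, 3642, 2142 and 3391 TPM in HD and 4903, 7135, 5034 and 4322 TPM in VHD animals. Of these sums GFAP alone held 549 to 1641 TPM in HD and 2277 to 4037 TPM in VHD animals. Of the 8 markers 7 were positive, with a median of 0.24, and 1 had no overlap. Of the 7 microglia markers, AIF1 (1.11), C1QA (0.79) and C1QB (0.64), the last being the most abundant at a mean of 134 TPM, rose, and the sums were 320, 362, 307 and 275 TPM in HD and 362, 555, 632 and 419 TPM in VHD animals. Over the 7, 5 were positive and 2 negative, with a median of 0.40. Of the 10 oligodendrocyte markers MBP passed, at 0.84, while 7 of the 10 were negative and the median was −0.19. The sums overlapped at 2591 to 4401 TPM in HD and 2505 to 5301 TPM in VHD. By limma, 0 of 9 interneuron markers passed (SST most abundant, mean 738 TPM), 0 of 6 glutamatergic markers (SLC17A7, 79.9 TPM, with SLC17A6, NEUROD2 and TBR1 at 0 in some animals) and 0 of 6 vascular markers (CLDN5, 56.7 TPM). At an unadjusted p under 0.05 these counts were 1, 0 and 0, and under TMM 2 astrocyte markers and 1 interneuron marker passed. Ribosomal protein genes made up 8.89%, 8.37%, 7.81% and 7.70% of TPM in the HD animals and 12.8%, 10.7%, 16.8% and 18.1% in the VHD animals. The part of these markers and of the ribosomal protein share in the differences of KCND2, KCNIP2 and DPP6 was not tested.

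Other genes around the Kv4 channel were taken from a list of 27, of which 24 were tested. In VHD minus HD, 7 of 24 fell, beside 1556 of 13637 genes (11.4%), 0 rose, and the median was −0.095 beside −0.17 over all genes. KCNA4, the pore subunit of another A-type channel, fell by 1.46 (adjusted p 0.00363 by limma), and KCNAB1, a beta subunit that gives fast inactivation to Kv1 channels, fell by 1.13 (0.00621). HPCA, a neuronal calcium sensor related to the KChIPs and the most abundant of the list at a mean of 2253 TPM, fell by 1.03 (0.0249). Of the kinases that phosphorylate Kv4.2, CAMK2B fell by 0.97 (0.00703) and PRKACA by 0.68 (0.0238). Under TMM 5 of the 7 passed and HPCA and CAMK2B did not, and 5 of the 24 genes turned from negative to positive, which changed the split from 15 negative and 9 positive to 10 and 14. KCND1, the remaining Kv4 pore subunit, had a difference of −0.23 with an adjusted p of 0.415 by limma. In HD* minus control, LD* minus control, HD* minus LD* and the intake slope, 0 of these 24 genes passed by limma and 0 had an unadjusted p under 0.05, and their medians were 0.023, 0.14, −0.10 and −0.075.

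Cohorts were also compared among animals that never drank ethanol, with 3 controls on each side, and no gene passed. All 8 genes had positive differences between the 3 controls of cohort 5 and the 3 of cohort 7b, with a median of 0.49 beside 0.014 over all genes. The difference was 0.82 for KCND2 (95% confidence interval 0.029 to 1.61) and 0.45 for DPP10 (0.054 to 0.84), the 2 genes with an unadjusted p under 0.05, and 0.78 for KCNIP2 and 0.51 for DPP6. By limma, 0 of 8 and 0 of 13637 genes (0%) had an adjusted p under 0.05, and 2 of 8 and 1372 of 13637 (10.1%) an unadjusted p under 0.05. All 12 projection neuron markers were also higher in cohort 5, with a median of 1.58 and 0 passing by limma (0 at an unadjusted p under 0.05), and their sums were 6840.0 to 14797 TPM in the cohort 5 controls and 881 to 10597 TPM in those of cohort 7b. The animal at 881 TPM is control 6, one of the libraries that stood apart. Markers of glia were mostly lower in cohort 5, with 10 of 10 oligodendrocyte (median −0.94), 6 of 7 microglia (−0.59) and 6 of 8 astrocyte markers (−0.57), of which 0 passed by limma and 5, 4 and 2 had an unadjusted p under 0.05. The part of these markers in these differences was not tested.

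Across the 24 animals, most pairs of genes of the complex were correlated, as were many pairs of genes in these libraries. Of 28 pairs, 19 had a correlation with a Benjamini-Hochberg adjusted permutation p under 0.05 over the 28, 18 positive and 1 negative. Without KCNIP3 the count was 18 of 21, and of its own 7 pairs 1 passed. The weakest of the 19 had an r of 0.45 in size, which 36.2% of all pairs of the 13637 genes reached, 27.2% positive and 8.94% negative, beside 67.9% of the 28; this difference was not tested. The closest pair was the pore subunit KCND2 and the membrane partner DPP6, with Pearson r 0.87 and Spearman rho 0.89. The two-sided permutation p was 1e-05 for both, the smallest that 100000 permutations can give, and the adjusted p was 7.00e-05 for r and 0.000187 for rho. Without the 2 animals farthest from the median of KCND2, r was 0.85. By group it was 0.94 for controls, 0.90 for LD* and 0.89 for HD*, and it was 0.81, 0.95 and 0.89 in cohorts 5, 7a and 7b.

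The pore subunits KCND2 and KCND3 had r 0.84 (permutation p 1e-05, adjusted 7.00e-05) and rho 0.77 (2.00e-05, adjusted 0.000187), with r 0.73 without the 2 farthest animals and 0.65, 0.94 and 0.92 in cohorts 5, 7a and 7b. KCND3 and KCNIP4 had r 0.82 (permutation p 1e-05, adjusted 7.00e-05) and rho 0.75 (4.00e-05, adjusted 0.000280), with r 0.73 without 2 animals. In the cohorts it was 0.42, 0.94 and 0.20, where cohort 7a holds 3 of the 4 animals of low median, and the difference between cohorts was not tested. KCNIP2 and DPP6 had r 0.74 (permutation p 2.00e-05, adjusted 9.33e-05) and rho 0.78 (2.00e-05, adjusted 0.000187), with 0.80 without 2 animals and 0.87, 0.90 and 0.64 in the cohorts. KCNIP3 and DPP6 were the negative pair, with r −0.45 (permutation p 0.0257, adjusted 0.0379) and rho −0.61 (0.00186, adjusted 0.00473), −0.39 without 2 animals and −0.70, −0.42 and −0.25 in the cohorts. Such values are common in these libraries, since the r of KCND2 with all other genes tested had a median of 0.38, was positive for 69.0% of them and was over 0.8 for 16.5%. DPP6 ranked 959 and KCND3 1510 among 13636 genes by r with KCND2.

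Part of this rested on the 4 animals of low median. Without them 9 of 28 pairs passed, 8 positive. The weakest of the 9 had an r of 0.56 in size, which 16.8% of all pairs of the 13637 genes reached in the same 20 animals, beside 32.1% of the 28. KCND2 and DPP6 were among the 9, with r 0.75 (adjusted permutation p 0.00126), as were KCNIP2 and DPP6 at 0.78 (0.000560) and KCNIP3 and DPP6 at −0.75 (0.00149). None of the 7 pairs with DPP10 was, and its r with KCND2 went from 0.80 (rho 0.59) to 0.42 (adjusted permutation p 0.132, range over all alternatives 8.00e-05 to 0.132). Under TMM 18 pairs passed, 15 positive.

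The members were also set against markers of cell types, and 14 of 56 pairs of a gene and a marker score passed, 8 positive. Under TMM 22 of the 56 passed, 8 positive, and without the 4 animals of low median 15 passed, 7 positive. The weakest of the 14 had an r of 0.51 in size, reached by 25% of the 56 and by 18.6% of the pairs of these scores with all tested genes outside their lists. For the projection neuron score these were 5 of 8 members and 35.4% of genes, for the microglia score 4 of 8 and 23.2%, and for the astrocyte score 3 of 8 and 28.2%; the differences were not tested. By r over the 24 animals KCNIP2 followed the projection neuron score most closely, with r 0.96 (permutation p 1e-05, adjusted 0.000560 over the 56) and rho 0.83 (1e-05, adjusted 0.000140). By rho DPP6 and KCND2 were higher, at 0.88 and 0.84. The r of KCNIP2 was 0.91 without the 2 farthest animals, 0.98 for controls, 0.92 for LD* and 0.96 for HD*, and 0.95, 0.93 and 0.99 in cohorts 5, 7a and 7b. DPP6 had r 0.75 (2.00e-05, adjusted 0.000560) and rho 0.88 (1e-05, adjusted 0.000140) in the same permutation test, 0.87 without 2 animals and 0.95, 0.95 and 0.63 in the cohorts. KCND2 had r 0.64 (0.000870, adjusted 0.00735) and rho 0.84 (1e-05, adjusted 0.000140), 0.70 without 2 animals and 0.78, 0.84 and 0.67 in the cohorts. KCND3 (r 0.55, rho 0.53) and KCNIP1 (r 0.53, rho 0.72) also passed, each at an adjusted permutation p of 0.0256 for r and at 0.0372 and 0.000747 for rho, with r 0.42 and 0.66 without 2 animals. KCNIP4 (0.19), DPP10 (0.31) and KCNIP3 (−0.42) did not, by r, while KCNIP3 passed by rho, at −0.59 (adjusted permutation p 0.0153). Without control 6 its r was −0.53 and passed too, with an adjusted permutation p of 0.0333 (range over all alternatives 0.0333 to 0.137). Without the 4 animals of low median KCNIP1 no longer passed, at 0.48 with an adjusted permutation p of 0.0939 (range over all alternatives 0.00168 to 0.0939).

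KCNIP3 followed the astrocyte score instead, with r 0.71 (permutation p 7.00e-05, adjusted 0.000980) and rho 0.70 (0.000240, adjusted 0.00168), 0.73 without the 2 farthest animals and 0.46, 0.72 and 0.57 in cohorts 5, 7a and 7b. It also followed the glutamatergic score, with r 0.64 (0.000740, adjusted 0.00735) and rho 0.59 (0.00282, adjusted 0.0153) in the permutation test, but 0.40 without 2 animals. KCNIP2 (r −0.70, rho −0.74) and DPP6 (r −0.59, rho −0.64) passed with a negative correlation with the astrocyte score, at −0.68 and −0.55 without the 2 farthest animals. With the microglia score KCND2 (r −0.51, rho −0.56), KCNIP1 (−0.60, −0.54), KCNIP2 (−0.62, −0.81) and DPP6 (−0.63, −0.70) were negative, with r at −0.49, −0.43, −0.70 and −0.63 without 2 animals. Of the 4 pairs with microglia, those of KCND2 and KCNIP1 did not pass without the 4 animals of low median (−0.48 each, adjusted permutation p 0.0947 each), that of KCNIP2 did not pass under TMM (−0.43, 0.0858), and that of DPP6 passed under every alternative run. Over these 6 pairs, with all animals, the adjusted permutation p ran from 0.000747 to 0.0435 for r and from 0.000140 to 0.0298 for rho. DPP10 had r 0.51 (adjusted permutation p 0.0435) and rho 0.38 (0.171) with the vascular score, and r was 0.34 without 2 animals and turned to −0.035 under TMM. With all 24 animals, no gene passed with the oligodendrocyte or interneuron scores. Without the 4 animals of low median, 2 pairs with the oligodendrocyte score and 1 with the interneuron score passed, all negative. What part the mix of cells has in the correlations between the genes was not tested.

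**Figure D3:**
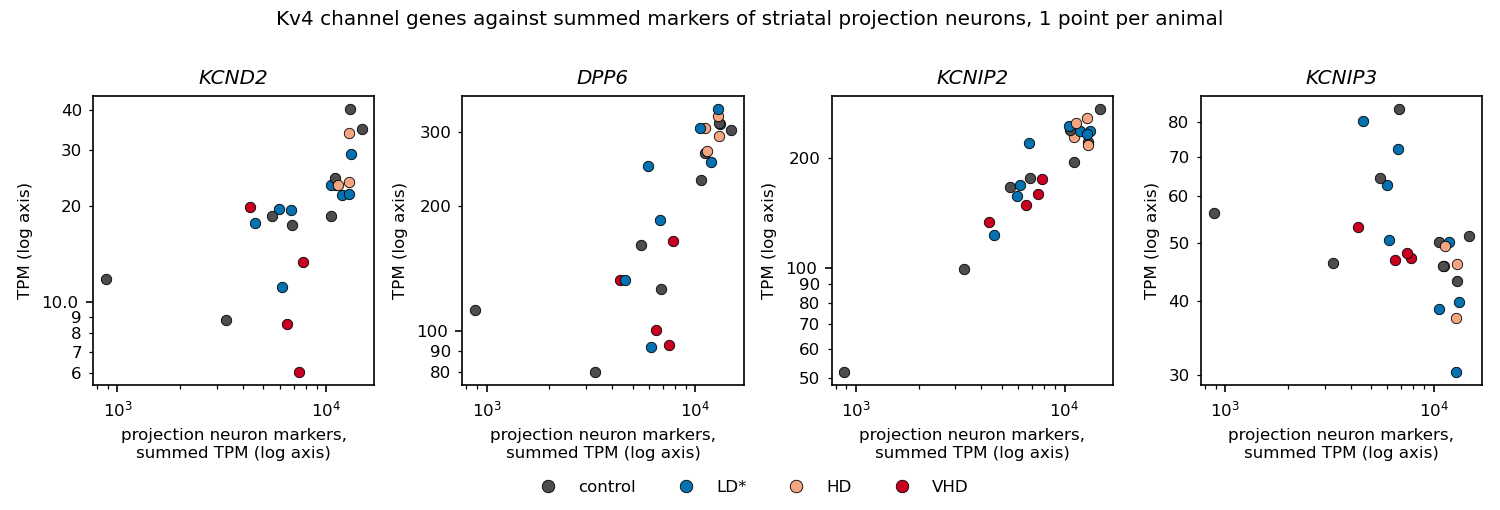
TPM of KCND2, DPP6, KCNIP2 and KCNIP3 (vertical axes) against the summed TPM of 12 striatal projection neuron markers (horizontal axes), all on log axes, with 1 point per animal coloured by category. KCNIP2 rises with the marker sum, though not in strict order, with control 6 lowest in both at 51.8 and 881 TPM, and the 4 VHD animals have lower sums (4334 to 7777 TPM) than the 4 HD animals (11149.9 to 12921 TPM).

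Among the 9197 genes whose mean level was 10 TPM or more, those with the highest r with KCND2 over the 24 animals were CLVS1 (0.96), RGS7BP (0.96), ITGAV (0.95), DPY19L3 (0.95) and FNIP2 (0.95), and those with the lowest were C1orf122 (−0.94), BCL7C (−0.93) and SSR4 (−0.93). For KCND3 the highest were GRAMD1B (0.97), KBTBD6 (0.96) and ZNF827 (0.96). For KCNIP2 they were SLC9A5 (0.96), the striatal regulator of G protein signalling RGS9 (0.96) and the phosphodiesterase PDE1B (0.96). For DPP6 they were PPP2R5D (0.98), LRRTM1 (0.98) and SLC9A7 (0.98), and for DPP10 ATP6AP2 (0.97), NRCAM (0.96) and CWC22 (0.96). KCNIP1 had PELI3 (0.86), NPRL3 (0.85) and PLEKHA6 (0.85), and KCNIP4 had C10orf88 (0.93), LANCL2 (0.92) and CTNNB1 (0.92). KCNIP3 had KCTD15 (0.86), NRN1 (0.84) and B3GAT1 (0.83), and no other gene of the complex appeared in any of these lists.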

How the data were processed

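The authors deposited values for 17208 genes in 1 column per animal in a file named as normalized counts, taken here as TPM from the column sums. Of these genes, 2 symbols were listed more than once and 27 had turned into dates. Per the submitters' processing notes, reads were checked with FastQC, aligned to MacaM with STAR 2.5.2b, counted with HTSeq 0.6.1p1 and compared with DESeq2. The step to TPM is not stated, and the series text differs from the sample protocol and the paper on strand and pairing. Each column adds up to 999998 to 1000000, so read depth per animal cannot be recovered from the values.

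From these values, log2(TPM + 1) of the 13637 genes whose mean reached 1 TPM was fitted with limma 3.58.1 (R 4.3.3; trended empirical Bayes, Benjamini-Hochberg adjustment, threshold 0.05, with 0.001 given beside it for VHD minus HD). The 3 groups were fitted together, VHD minus HD in the 8 HD* animals, and the intake slope in the 16 drinkers. Single genes had two-sided exact permutation tests, and correlations 100000 permutations (Python 3.11.15, numpy 2.4.6, scipy 1.17.1, pandas 2.3.3, matplotlib 3.10.9). Scores are means of centred log2 values over a marker list. The fits of HD* minus control, VHD minus HD and the intake slope were tested on simulated data in which genes varied independently. The fits between cohorts and the alternatives were not.

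Alternatives were pseudocounts of 0.1 and 8, no filter or 10 TPM, TMM (trims 30% and 5%), cohort, group, oligodendrocyte and projection neuron scores as covariates, array weights, other sets of animals, and each animal left out. Named are the 8 genes, listed genes that pass a test or are most abundant in a list, and genes of highest or lowest r. The members and lists were chosen with earlier results of these data known. All 8 symbols, and 15246 of 17208, occur in the RefSeq annotation T2T-MMU8v2.0. Promoter motifs and protein identity were not analysed here, nor were KCNE1, KCNE3, KCNE5 and PECAM1. Values of some listed genes that the naming rule covers are not reported here.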

Additional observations from a re-analysis of the deposited data

Results flagged for a closer look

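Of 40 groups of 4 to 8 animals in which each gene's extreme value was compared with the rest, 2 held an animal far from the others, and chance gives about 1 in 20. KCND2 in HD* 2, at 34.0 TPM, was the highest of the 4 HD animals, with the others at 23.2 to 23.8 TPM. KCNIP3 in HD* 5, at 37.4 TPM, was the lowest of the 8 HD* animals, with the others at 45.9 to 53.4 TPM. No cause was tested.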

How the results depend on the processing

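The genes passing in VHD minus HD, 1997 as reported, were 7613 with array weights, 606 without the 4 animals of low median, 25 without the 7 animals with glutamatergic markers, and 0 with the projection neuron score as a covariate or with all 24 animals in 4 categories (limma; 1484 and 4608 genes at an unadjusted p under 0.05). Leaving out each animal gave 476 to 4651. In HD* minus control, LD* minus control, HD* minus LD* and the intake slope 0 genes passed by limma as reported and under every alternative, with 775, 387, 147 and 907 at an unadjusted p under 0.05 as reported.

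Log2 differences that turned sign, in HD* minus control, were DPP6 at −0.12 with cohort, −0.043 with the oligodendrocyte score and −0.18 with the projection neuron score as a covariate; KCND3 at 0.034 under TMM; KCND2 at 0.0050 and KCND3 at 0.11 without the 4 animals of low median; and KCNIP1 at −0.015 and DPP6 at −0.12 without the 7. In LD* minus control, KCND2 was −0.0087 with a pseudocount of 8, −0.055 with the oligodendrocyte score, −0.18 with the projection neuron score, −0.085 with array weights and −0.029 without the 4, and DPP10 was 0.062 with cohort. In HD* minus LD*, KCND2 was 0.034, KCNIP1 0.028 and KCNIP2 0.024 without the 4, KCNIP1 0.060 and KCNIP2 0.043 under TMM, KCNIP2 0.0030 with the oligodendrocyte score, KCNIP2 0.017 and KCNIP3 0.017 with array weights, and KCNIP3 0.16 without the 7. In VHD minus HD, KCNIP3 was −0.11 with the projection neuron score and KCNIP4 0.080 without the 4. For the intake slope, KCNIP2 was 0.025 and KCNIP3 0.011 under TMM, and KCNIP3 was 0.015 with cohort and 0.11 without the 7.

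Leaving out each animal, the differences that turned sign ran from −0.18 to 0.062 (KCND3), −0.23 to 0.033 (KCNIP4) and −0.090 to 0.22 (DPP6) in HD* minus control, from −0.14 to 0.16 (KCND2), −0.18 to 0.014 (KCNIP3) and −0.20 to 0.12 (DPP10) in LD* minus control, and from −0.12 to 0.093 (KCNIP1) and −0.14 to 0.027 (KCNIP2) in HD* minus LD*. Differences that held their sign also moved. In HD* minus control, KCNIP2 ran from 0.026 to 0.36 and KCND2 from −0.37 to −0.023. In LD* minus control, KCNIP2 ran from 0.072 to 0.41.

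Correlations that turned sign were KCNIP1 and KCNIP4 (−0.046 under TMM, −0.025 without the 4), KCNIP3 and KCNIP4 (−0.33 under TMM, −0.033 without the 4), KCNIP3 and DPP10 (−0.22 under TMM), KCNIP2 and KCNIP4 (−0.036 without the 4), DPP10 with the vascular score (−0.035 under TMM) and KCNIP4 with the projection neuron score (−0.011 without the 4). Over all 56 pairs of a gene and a score, 17 turned sign under TMM and 12 without the 4; those that did not pass as reported, other than with projection neurons, are given as these counts. The correlation of KCND2 with the microglia score was −0.49 without control 6 (adjusted permutation p 0.0538, range over all alternatives 0.000112 to 0.0947).

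The cause was not tested for any of these. The alternatives without the 4, without the 7, and all those for correlations were chosen after seeing the data. No paired analysis was possible because the animals are unrelated and their numbers within a group carry no pairing. TPM carries no read depth, so the counting error of a low value such as KCND2 in HD* 8 is unknown. Groups of 8, and categories of 4, leave wide intervals, and HD* animals share only cohorts 5 and 7a with controls.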
